A study of Mus musculus with 12 samples.

Results

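The guanylate-binding proteins Gbp2, Gbp3, Gbp4, Gbp5, Gbp6, Gbp7, Gbp8 and Gbp9 and the immunity-related GTPases Igtp and Irgm1 are 10 of the 19212 genes in the deposited expression table. They were listed by name with their changes in both treated-against-control comparisons already known, so those 2 comparisons are no test of them, and counts of calls are given there as a description only. All 10 were found in the table and all 10 had reads in every library. The study grew Lewis lung carcinoma (LLC) cells, a mouse line, and built mouse lung cancer models from them. OTUB1 is a deubiquitinating enzyme, a protease that removes ubiquitin from other proteins. Poly(A) RNA from 12 samples labelled as lung cancer tissue was sequenced, with 3 samples in each of 4 groups.

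The OTUB1_KD samples came from LLC cells given an OTUB1 knockdown lentivirus before the model was made, and the NC samples from LLC cells given a negative control lentivirus. The SFD@M samples came from animals treated with an agent of that name, which the labels do not describe, and the Blank samples from animals given physiological saline. The labels give the genotype of the NC, SFD@M and Blank samples as WT, and Blank titles hold codes starting in KD. Strain, age, dose and time are not given in the labels, nor whether a replicate was an animal of its own. The p-values therefore set group differences only against the spread of these samples, and that spread may be technical.

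These GTPases are textbook products of the interferon-gamma response. The cytokine, made mainly by T and NK cells, signals through its receptor and the JAK1 and JAK2 kinases, and raises the transcription factor IRF1. Guanylate-binding proteins gather on bacteria and on parasite-containing vacuoles, break them open and feed inflammasomes. Igtp, also called Irgm3, and Irgm1 are regulatory immunity-related GTPases that sit on the cell's own membranes and restrain the effector GTPases there.

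The RefSeq promoter table, on GRCm38.p6, held a promoter of 6 of the 10 genes (Gbp2, Gbp3, Gbp5, Gbp7, Igtp and Irgm1) and no entry for Gbp4, Gbp6, Gbp8 or Gbp9. Each promoter runs from 250 bases before the start of the gene to 50 bases after it. A pair of letter patterns were searched on both strands: GAAANNGAAA, an interferon-stimulated response element (ISRE) bound by factors of the IRF family, and TTCNNNGAA, a gamma-activated site (GAS). All 6 genes had at least 1 promoter with the ISRE letters. By promoter it was 6 of 7, against 3.44% of the 32851 promoters in the table, because a second promoter of Gbp3 held neither pattern. Gbp5, Gbp7 and Igtp had the GAS letters, in 3 of the 7 promoters, against 8.30% of all promoters. No ISRE match overlapped a GAS match in these promoters. The promoters below belong to the guanylate-binding proteins with the highest TPM of the 10 in OTUB1_KD and SFD@M, though not in NC or Blank (Gbp2), and with the largest log2 fold changes of the 10 against both control groups (Gbp5), and to both immunity-related GTPases. They are shown because the letters lie at different distances from the start. They are written 5′ to 3′ in the gene's direction, from the plus strand at chr3:142620413-142620712 (Gbp2), chr3:142496684-142496983 (Gbp5) and chr11:58199306-58199605 (Igtp), and from the minus strand at chr11:48871371-48871670 (Irgm1). Capitals mark the matches to either pattern.
Gbp2: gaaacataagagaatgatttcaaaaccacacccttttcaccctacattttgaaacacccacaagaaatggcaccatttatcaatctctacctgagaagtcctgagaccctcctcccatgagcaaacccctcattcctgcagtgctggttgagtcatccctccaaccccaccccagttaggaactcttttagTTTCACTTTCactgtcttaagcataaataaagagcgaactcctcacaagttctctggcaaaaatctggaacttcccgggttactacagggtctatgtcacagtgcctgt
Gbp5: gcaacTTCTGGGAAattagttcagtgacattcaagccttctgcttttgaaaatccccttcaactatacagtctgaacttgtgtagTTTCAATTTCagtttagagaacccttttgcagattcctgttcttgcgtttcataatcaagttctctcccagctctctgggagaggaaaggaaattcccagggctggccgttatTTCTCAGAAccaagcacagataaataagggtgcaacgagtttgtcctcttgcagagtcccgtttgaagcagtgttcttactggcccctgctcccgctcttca
Igtp: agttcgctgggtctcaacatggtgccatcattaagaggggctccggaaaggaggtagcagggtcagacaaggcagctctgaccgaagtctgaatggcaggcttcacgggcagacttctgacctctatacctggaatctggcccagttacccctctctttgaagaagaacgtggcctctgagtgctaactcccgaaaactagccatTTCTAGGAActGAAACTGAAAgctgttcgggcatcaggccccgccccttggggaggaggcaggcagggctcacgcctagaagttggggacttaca
Irgm1: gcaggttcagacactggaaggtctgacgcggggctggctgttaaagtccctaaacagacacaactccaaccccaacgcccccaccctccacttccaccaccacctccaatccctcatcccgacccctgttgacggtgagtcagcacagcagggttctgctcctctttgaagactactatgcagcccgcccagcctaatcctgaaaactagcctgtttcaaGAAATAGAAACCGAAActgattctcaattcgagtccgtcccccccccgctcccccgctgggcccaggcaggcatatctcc
In Gbp2 the single match was an ISRE at -59 to -50 from the start of the gene. Gbp5 had an ISRE farther out, at -165 to -156, and GAS letters at -245 to -237 and -52 to -44. Igtp had GAS letters at -45 to -37 directly before an ISRE at -34 to -25. Irgm1 had 2 overlapping ISRE matches, at -30 to -21 and -24 to -15. A match describes the letters and does not show that a factor binds there.

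Libraries held 16062805 to 18028815 counts, and levels are given as CPM, read counts scaled to the library total, with TPM, which corrects for transcript length, wherever genes are set against each other. The 4 groups differed widely in cell markers. Ptprc, the pan-leukocyte surface phosphatase CD45, was at 224, 239 and 154 CPM in OTUB1_KD libraries against at most 0.187 CPM in NC libraries, and at 222, 209 and 227 CPM in SFD@M libraries against at most 0.0583 CPM in Blank libraries. Summed over 5 alveolar epithelial markers, levels were 8872 to 22904 CPM in OTUB1_KD, 15.2 to 18.7 in NC, 18784 to 20986 in SFD@M and 11.0 to 11.7 in Blank. Cd3e (T cell), Ncr1, Klrb1c and Gzma (NK cell), Adgre1 and Siglecf (macrophage), S100a9 (neutrophil) and Cldn5 (endothelium) were at 0 counts in all 6 NC and Blank libraries, and each was detected in the OTUB1_KD and SFD@M groups. Ly6g, another of the 4 neutrophil markers, was present in all 4 groups, with 4.06, 0.983 and 3.72 CPM in OTUB1_KD against 7.22, 6.30 and 5.39 CPM in NC, and 3.29, 4.83 and 11.5 CPM in SFD@M against 3.31, 3.01 and 2.97 CPM in Blank. Endothelial (5 genes) and airway (3 genes) sums ran from 786 to 36001 CPM in OTUB1_KD and SFD@M and reached at most 1.48 CPM in NC and Blank, while 4 fibroblast markers summed to 1919 to 2678 CPM in OTUB1_KD, 212 to 222 in NC, 1234 to 1438 in SFD@M and 194 to 202 in Blank. The 4 Y-linked genes Ddx3y, Uty, Kdm5d and Eif2s3y were listed as markers of tumour RNA, a reading that was not tested. They summed to 0.636 to 127 CPM in OTUB1_KD against 340.5 to 348.3 in NC, and to 0.177 to 1.64 in SFD@M against 368 to 375 in Blank. By library this was 36.9%, 0.184% and 7.08% of the NC mean in OTUB1_KD. In SFD@M it was 0.442%, 0.0475% and 0.158% of the Blank mean. The 2 dividing-cell markers Mki67 and Top2a were likewise lower in the treated groups. They summed to 129 to 566 CPM in OTUB1_KD against 1872 to 1967 in NC, and to 13.6 to 62.2 CPM in SFD@M against 1835 to 1893 in Blank. The part of this difference in cell make-up in the values that follow was not tested, and in bulk RNA more cells of a type and more RNA per cell cannot be told apart.

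All 10 GTPases were higher in OTUB1_KD than in NC libraries and higher in SFD@M than in Blank libraries, and no treated library overlapped a control library for any of them in its own experiment. Their summed level was 2306, 2455 and 1865 CPM in OTUB1_KD against 145, 144 and 146 CPM in NC, and 691, 879 and 1156 CPM in SFD@M against 93.2, 96.8 and 97.8 CPM in Blank. All 10 passed an adjusted p of 0.05 as higher in OTUB1_KD (edgeR quasi-likelihood test, Benjamini-Hochberg), where 39.9% of the 14785 genes tested did and 25.8% passed as lower. All 10 passed as higher in SFD@M too, where 49.5% of 14824 genes did and 38.7% passed as lower. The median log2 fold change of the 10 was 3.83 for OTUB1_KD over NC, beside 0.16 for all genes tested, and 3.17 for SFD@M over Blank, beside 0.23. The choice of the genes used these contrasts, so their counts and medians carry no support of their own. Ranges that did not overlap on the higher side were found for 45.6% of all genes in the first comparison and 51.3% in the second.

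**Figure D1:**
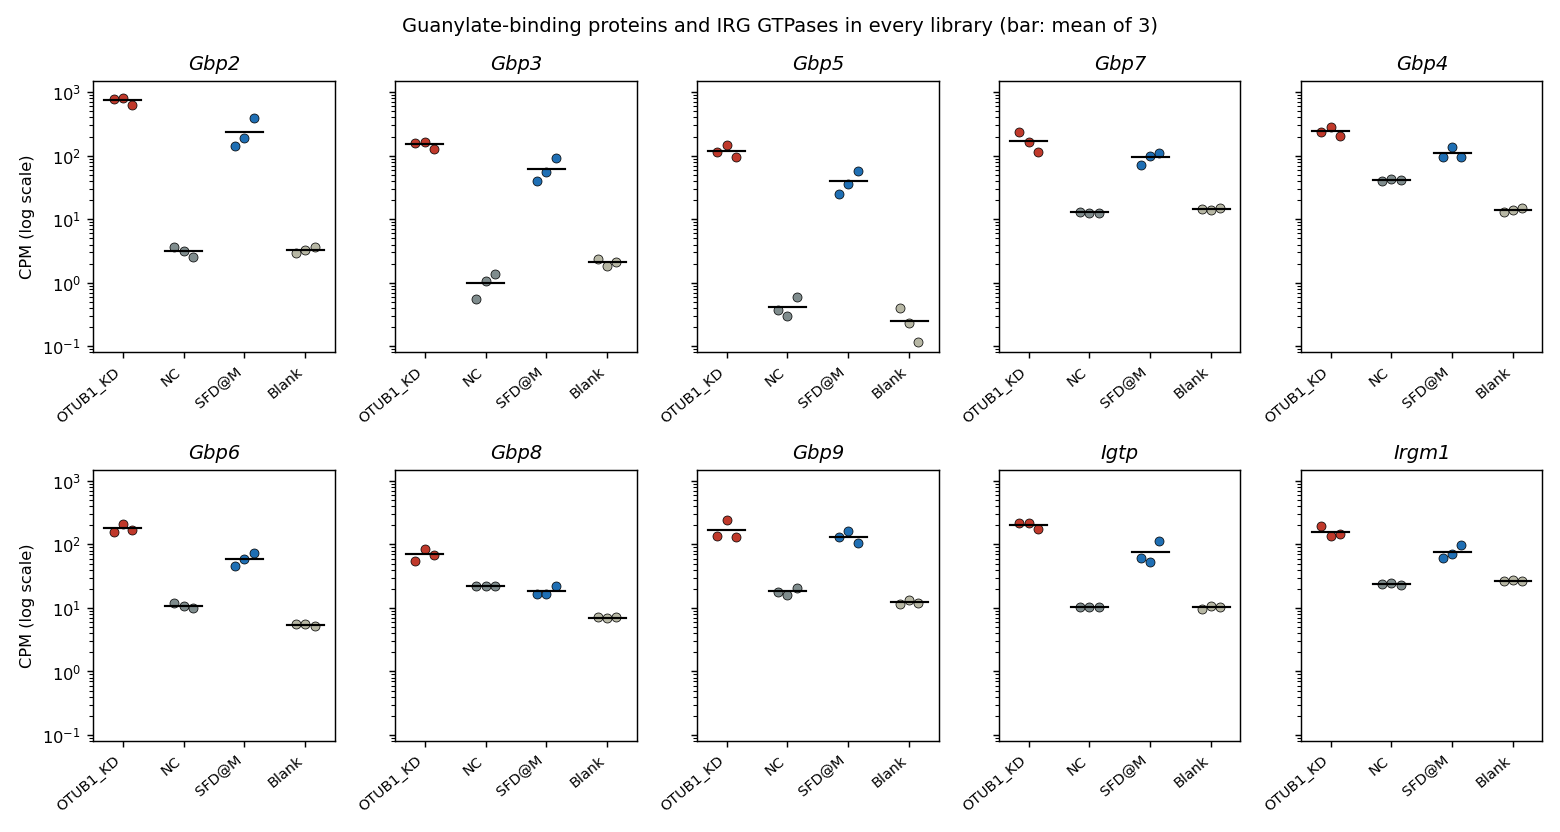
CPM on a log scale of the 10 GTPases in every library, with 3 libraries (points) and their mean (bar) in each of the OTUB1_KD, NC, SFD@M and Blank groups. Every OTUB1_KD point lies above every NC point and every SFD@M point above every Blank point, and the gap is widest for Gbp2, Gbp3 and Gbp5, whose control libraries are all under 4 CPM.

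Gbp2, Gbp3, Gbp5 and Gbp7 stand next to one another in the RefSeq table, with Gbp2b among them. Gbp2, which gathers on Toxoplasma vacuoles and helps open them in mice, had 796, 803 and 628 CPM in OTUB1_KD libraries against 3.67, 3.15 and 2.55 CPM in NC libraries, and 145, 187 and 387 CPM in SFD@M libraries against 2.91, 3.25 and 3.67 CPM in Blank libraries. The OTUB1_KD libraries lay close together, while the highest SFD@M library was well above the other two. The log2 fold change of Gbp2 was 7.82 ± 0.27 (SE, 3 libraries per group, as for all fold changes here) for OTUB1_KD over NC and 6.15 ± 0.47 for SFD@M over Blank. Gbp5, known for promoting NLRP3 inflammasome assembly, was close to undetected in controls: it had 113, 147 and 95.2 CPM in OTUB1_KD against 0.374, 0.297 and 0.593 CPM in NC, and 25.3, 36.4 and 58.2 CPM in SFD@M against 0.407, 0.232 and 0.117 CPM in Blank. Its controls rest on 5 to 10 counts per NC library and 2 to 7 per Blank library, so the size of its fold change, 8.04 ± 0.32 and 7.23 ± 0.51 in the same order, is loosely fixed, although the groups were far apart.

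Gbp3, which restricts intracellular pathogens, behaved like Gbp2 at lower counts. It had 158, 167 and 128 CPM in OTUB1_KD against 0.560, 1.07 and 1.36 CPM in NC, and 39.5, 56.2 and 93.1 CPM in SFD@M against 2.32, 1.86 and 2.10 CPM in Blank. Gbp3 had log2 fold changes of 7.16 ± 0.33 for OTUB1_KD over NC and 4.87 ± 0.38 for SFD@M over Blank. Gbp7, which takes part in killing of bacteria in macrophages, differed from these genes in having a sizeable level in the controls. It had 237, 167 and 114 CPM in OTUB1_KD against 13.2, 12.7 and 12.6 CPM in NC, and 72.3, 101 and 109.6 CPM in SFD@M against 14.4, 14.2 and 15.2 CPM in Blank. Its log2 fold changes were 3.68 ± 0.28 and 2.65 ± 0.16 in that order, and the lowest OTUB1_KD library was nearly level with the highest SFD@M library.

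Gbp4, Gbp6, Gbp8 and Gbp9 form a second run of neighbours in the RefSeq table, together with Gbp10. All had clear levels in the control libraries. Gbp4 had 236, 284 and 205 CPM in OTUB1_KD against 40.3, 43.7 and 42.0 CPM in NC, and 95.6, 137 and 96.3 CPM in SFD@M against 13.0, 13.8 and 15.2 CPM in Blank. Its log2 fold changes were 2.45 ± 0.17 for OTUB1_KD over NC and 2.94 ± 0.17 for SFD@M over Blank. Gbp6 had 159, 206 and 170 CPM in OTUB1_KD against 11.8, 10.6 and 10.1 CPM in NC, and 45.3, 58.3 and 74.0 CPM in SFD@M against 5.64, 5.57 and 5.19 CPM in Blank. For Gbp6 these gave log2 fold changes of 3.97 ± 0.17 and 3.40 ± 0.20 in that order. Reads of Gbp6 are uncertain, because 37.3% of the 100-base stretches of its transcripts in the GENCODE M21 set also occur in another gene, most often Gbp10.

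Gbp8 showed the smallest change of the 10. It had 55.6, 85.6 and 69.3 CPM in OTUB1_KD against 22.5, 22.5 and 22.4 CPM in NC, and 16.7, 16.4 and 21.8 CPM in SFD@M against 7.15, 6.84 and 7.17 CPM in Blank. The log2 fold changes of Gbp8 were 1.57 ± 0.18 and 1.34 ± 0.14 in that order, and its SFD@M libraries lay below the NC libraries of the other experiment. Gbp9 had 137, 241 and 133 CPM in OTUB1_KD against 17.7, 15.7 and 21.0 CPM in NC, and 129, 163 and 105 CPM in SFD@M against 11.6, 13.2 and 12.1 CPM in Blank. Its log2 fold changes were 3.16 ± 0.28 and 3.40 ± 0.17 in that order, and it is the one listed gene whose OTUB1_KD and SFD@M libraries overlapped.

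The regulatory immunity-related GTPases had steady levels in the control groups. Igtp had 218, 218 and 177 CPM in OTUB1_KD against 10.3, 10.2 and 10.3 CPM in NC, and 60.5, 53.4 and 114 CPM in SFD@M against 9.53, 10.8 and 10.3 CPM in Blank. Its log2 fold changes were 4.24 ± 0.16 for OTUB1_KD over NC and 2.86 ± 0.31 for SFD@M over Blank, with 1 SFD@M library at about the sum of the other two. Irgm1, whose loss in mice impairs survival of infection and of lymphocytes, had 197, 136 and 145 CPM in OTUB1_KD against 24.2, 24.4 and 22.8 CPM in NC, and 61.7, 69.8 and 96.7 CPM in SFD@M against 26.3, 27.1 and 26.9 CPM in Blank. For Irgm1 the log2 fold changes were 2.68 ± 0.19 and 1.47 ± 0.16 in that order. Within the SFD@M group the third library had the highest level of 8 of the 10 genes, all but Gbp4 and Gbp9, for which the second library was highest.

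Set against each other per transcript length, the order of the genes differed between treated and control groups. Gbp2 led in OTUB1_KD libraries at 447 ± 55.2 TPM (SD, n = 3, as for all TPM values here) and in SFD@M libraries at 141 ± 74.8 TPM. In both groups it was followed by Igtp, at 153 ± 17.5 TPM in OTUB1_KD and 55.7 ± 23.7 TPM in SFD@M, and by Irgm1, at 112 ± 26.5 TPM in OTUB1_KD and 52.5 ± 12.4 TPM in SFD@M. Igtp and Irgm1 overlapped each other in both groups, and Gbp2 lay apart from both. Below them in OTUB1_KD came Gbp3 (80.8 ± 9.52 TPM) and Gbp4 (76.4 ± 9.04 TPM), which overlapped, then Gbp6 (57.7 ± 5.34 TPM), Gbp5 (56.4 ± 9.95 TPM), Gbp7 (42.7 ± 15.6 TPM), Gbp9 (42.3 ± 12.6 TPM) and Gbp8 (37.5 ± 6.63 TPM), each overlapping its neighbour. In SFD@M the middle of the order could not be resolved: every neighbour overlapped from Gbp4 (33.8 ± 8.55 TPM) through Gbp3, Gbp9, Gbp7 and Gbp5 to Gbp6 (18.6 ± 4.58 TPM), and Gbp8 was lowest and apart at 9.65 ± 1.66 TPM.

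In control libraries Irgm1 stood first, at 19.1 ± 0.660 TPM in NC and 22.2 ± 0.299 TPM in Blank, apart from the gene after it in both groups. Gbp5 stood last, at 0.237 ± 0.0833 TPM in NC and 0.143 ± 0.0808 TPM in Blank. In NC no neighbours in the order overlapped: after Irgm1 came Gbp4 (15.6 ± 0.649 TPM), Gbp8 (13.7 ± 0.196 TPM), Igtp (9.11 ± 0.0462 TPM), Gbp9, Gbp6, Gbp7, Gbp2 (2.21 ± 0.400 TPM) and Gbp3 (0.620 ± 0.242 TPM). In Blank the order after Irgm1 was Igtp (9.29 ± 0.563 TPM), Gbp4 (5.38 ± 0.408 TPM), Gbp8, Gbp7, Gbp9, Gbp2 (2.38 ± 0.276 TPM), Gbp6 and Gbp3 (1.34 ± 0.146 TPM), where Gbp4 overlapped Gbp8, Gbp8 overlapped Gbp7 and Gbp2 overlapped Gbp6. Gbp2 made up 40.4% ± 0.606 of the summed TPM of the 10 genes in OTUB1_KD against 3.00% ± 0.524 in NC, and 32.4% ± 6.57 in SFD@M against 4.30% ± 0.379 in Blank (SD, n = 3). Irgm1 made up 10.1% ± 1.98 in OTUB1_KD against 25.9% ± 0.688 in NC, and 12.8% ± 1.15 in SFD@M against 40.1% ± 0.648 in Blank.

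**Figure D2:**
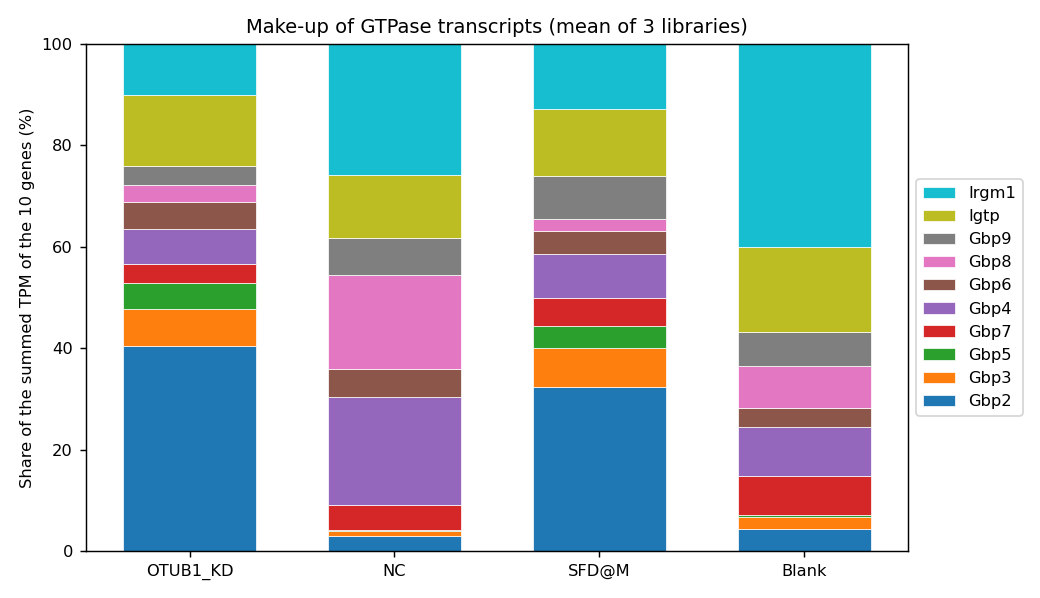
Share of each GTPase in the summed TPM of the 10 genes, in percent, as the mean of 3 libraries in OTUB1_KD, NC, SFD@M and Blank (stacked bars). Gbp2 holds 40.4% in OTUB1_KD and 32.4% in SFD@M but 3.00% in NC and 4.30% in Blank, where Irgm1 is the largest share.

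The form of Irgm1 also differed. The table splits it into RefSeq transcripts, of which NM_001355757 made up 54.4%, 68.9% and 61.3% of Irgm1 TPM in OTUB1_KD libraries against 28.5%, 38.3% and 30.6% in NC libraries, and 75.8%, 65.7% and 72.6% in SFD@M libraries against 41.3%, 36.2% and 42.9% in Blank libraries. NM_008326 held 36.5%, 26.8% and 32.1% in OTUB1_KD against 58.4%, 55.9% and 54.2% in NC, and 21.2%, 28.8% and 24.9% in SFD@M against 47.7%, 54.7% and 46.2% in Blank. Neither share overlapped between treated and control libraries of an experiment. No test was run on shares, which are estimates of how reads divide between overlapping transcripts. Further entries of NM_001355757 are not counted in these shares. The largest held 0% to 4.95% in OTUB1_KD, 5.83% to 6.17% in NC, 0% to 0.121% in SFD@M and 6.36% to 10.9% in Blank. Counted together, the entries of NM_001355757 would stand above NM_008326 in every Blank library except that where NM_008326 held 54.7%. The order in Blank therefore depends on the entries used. For Gbp4, NM_008620 held 33.4% to 51.3% in OTUB1_KD against 33.1% to 42.7% in NC, which overlapped, and 42.2% to 61.3% in SFD@M against 17.9% to 21.8% in Blank, which did not. Igtp is entered as 2 copies of 1 transcript, each given 50.0% in every library, and Gbp2 and Gbp5 have 1 transcript each.

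**Figure D3:**
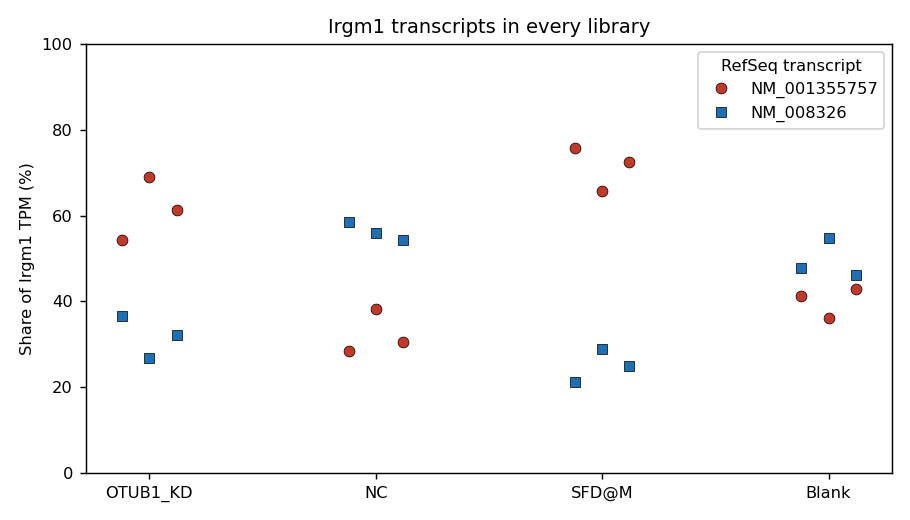
Share of Irgm1 TPM, in percent, held by 2 RefSeq transcripts in each of 3 libraries (points) of OTUB1_KD, NC, SFD@M and Blank. NM_001355757 lies above NM_008326 in every OTUB1_KD and SFD@M library, at 54.4% to 75.8%. It lies below NM_008326 in every NC and Blank library, at 28.5% to 42.9%. Further entries of NM_001355757, the largest with 6.36% to 10.9% in Blank, are not plotted. The order in Blank depends on whether they are counted.

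The 2 treated groups come from different experiments, so experiment and group cannot be told apart. Their comparison was not used to choose the genes, although the libraries are shared with the comparisons that were. All 10 GTPases had a negative log2 fold change for SFD@M over OTUB1_KD, from -1.92 ± 0.22 for Gbp8 to -0.34 ± 0.27 for Gbp9. None passed an adjusted p of 0.05 (edgeR quasi-likelihood test), in a comparison where 0.0134% of 14914 genes passed as higher and 0% as lower. At an unadjusted p below 0.05, 9 of the 10 were lower in SFD@M, all but Gbp9, against 12% of all genes, and for the same 9 every SFD@M library was below every OTUB1_KD library, against 16.7% of all genes. The median log2 fold change was -1.33, beside -0.02 for all genes. DESeq2 called 8 of the 10 lower, where it called 5.98% of all genes lower, and a fit over all 12 libraries called 9, where it called 12.2%. Without the second OTUB1_KD library the edgeR test called 6, beside 8.8% of all genes, and without the first it called 1, beside 0.0266%.

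By gene, Gbp8 had the smallest adjusted p, 0.059, and Gbp6 followed with -1.58 ± 0.22 (adjusted p = 0.069). Gbp4 was at -1.12 ± 0.22 (adjusted p = 0.085), Gbp5 at -1.55 ± 0.31 (0.087), Igtp at -1.41 ± 0.30 (0.093), Gbp2 at -1.62 ± 0.37 (0.10), Irgm1 at -1.06 ± 0.24 (0.10), Gbp3 at -1.25 ± 0.31 (0.11), Gbp7 at -0.86 ± 0.29 (0.17) and Gbp9 at -0.34 ± 0.27 (0.50), all adjusted p from edgeR. Ptprc itself had a log2 fold change of 0.11 ± 0.20 (adjusted p = 0.79). Relative to Ptprc in the same library, Gbp2 counts were 0.652, 0.895 and 1.70 times those of Ptprc in SFD@M against 3.54, 3.36 and 4.09 times in OTUB1_KD. Gbp9 was at 0.583, 0.781 and 0.465 times Ptprc in SFD@M against 0.612, 1.01 and 0.866 times in OTUB1_KD. The same 9 genes that lay apart in CPM lay apart as a ratio to Ptprc, and Gbp9 overlapped. Which genes lay apart depended on the marker used. As a ratio to Cdh5, an endothelial marker, both Gbp9 and Gbp7 overlapped, and the other listed genes lay apart. Gbp7 was at 0.158, 0.143 and 0.209 times Cdh5 in SFD@M against 1.09, 0.336 and 0.188 times in OTUB1_KD.

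**Figure D4:**
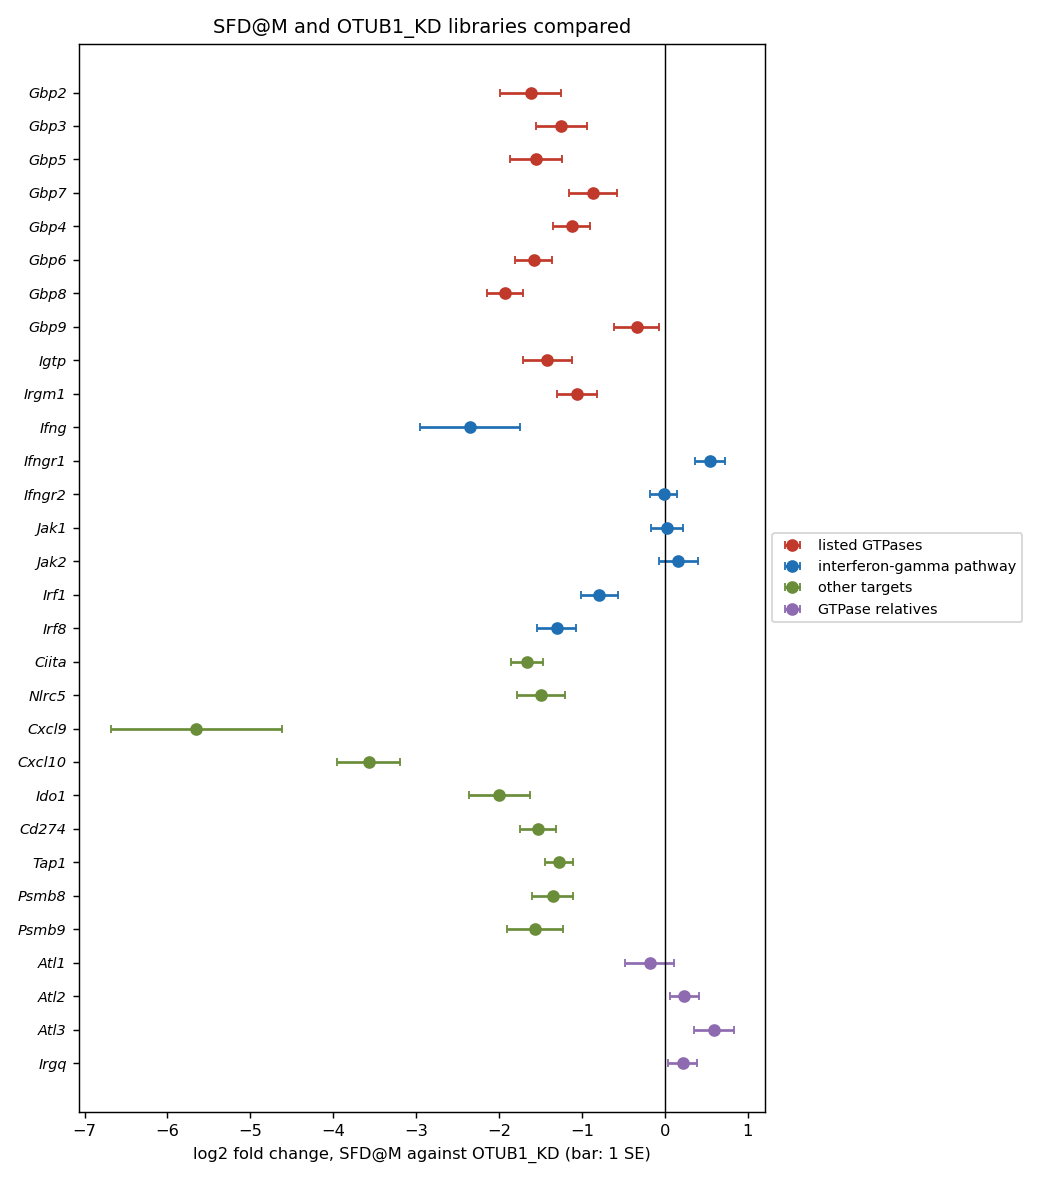
Log2 fold change (points, with bars of 1 SE) of SFD@M over OTUB1_KD for the 10 GTPases, genes of the interferon-gamma pathway, its other targets and GTPase relatives. All 10 GTPases lie left of 0, between -1.92 and -0.34, as do the other targets, while the relatives lie between -0.18 and 0.59; the values of Ifng and Cxcl9 rest on few counts or widely spread libraries.

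Leukocyte classes did not move as 1 block between these groups. Summed CPM of 4 T cell markers was 29.2 to 35.5 in SFD@M against 60.5 to 83.2 in OTUB1_KD, and that of 3 B cell markers was 13.8 to 37.8 in SFD@M against 49.9 to 105 in OTUB1_KD. Summed CPM of 4 NK cell markers was 52.5 to 107 in SFD@M against 51.2 to 70.9 in OTUB1_KD, which overlapped. Nkg7 and Gzma overlapped as single genes, while Ncr1 and Klrb1c were higher in every SFD@M library. Ncr1 had 3.52, 8.36 and 6.24 CPM in SFD@M against 2.40, 3.18 and 3.49 CPM in OTUB1_KD. Klrb1c had 6.63, 12.3 and 9.60 CPM against 3.83, 5.66 and 4.99 CPM. None of the 4 passed an adjusted p of 0.05 (edgeR). The sum of 6 macrophage markers overlapped too, at 4542 to 5082 CPM in SFD@M against 3158 to 8543 CPM in OTUB1_KD. Most of the macrophage sum was Lyz2, at 2713, 4191 and 8105 CPM in OTUB1_KD. Csf1r did not overlap, with 131, 119 and 127 CPM in SFD@M against 172, 174 and 234 CPM in OTUB1_KD. All 6 macrophage markers had a negative log2 fold change, from -0.62 to -0.05, and none passed an adjusted p of 0.05 (edgeR). Neutrophil markers ran the other way, with 961 to 1625 CPM in SFD@M against 117 to 443 CPM in OTUB1_KD over 4 genes. The part of these cell classes in the GTPase levels was not tested.

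The 2 control groups also come from different experiments, so here too experiment and group cannot be told apart. Between them the GTPases did not move together: the 4 listed genes of the Gbp4 run were lower in Blank than in NC, and 3 genes outside it were higher, a grouping by neighbours that was made after the values were seen. Gbp5 was left out by the filter on low counts, with 13 counts over the 3 Blank libraries and 21 over the 3 NC libraries. Of the 9 tested, 3 were higher, where 37% of 12087 genes were, and 4 were lower, where 37.2% of genes were, so neither count stands out from the background. Gbp8 had a log2 fold change of -1.67 ± 0.08 (adjusted p = 4.5e-30), Gbp4 of -1.59 ± 0.06 (1.7e-36), Gbp6 of -0.99 ± 0.11 (2.1e-13) and Gbp9 of -0.57 ± 0.08 (1.9e-08). Their neighbour Gbp10 was lower still, with 0.232, 0.522 and 0.117 CPM in Blank against 3.55, 3.98 and 3.85 CPM in NC. Its log2 fold change was -3.68 ± 0.28 (adjusted p = 3.0e-20, edgeR). Reads of Gbp10 are uncertain, because 60.9% of its 100-base stretches also occur in another gene, most often Gbp6, so the 2 genes are not independent.

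Gbp3 was higher in Blank, with a log2 fold change of 1.05 ± 0.24 (adjusted p = 9.6e-05), and Gbp7 and Irgm1 passed with small differences of 0.19 ± 0.08 (0.034) and 0.17 ± 0.06 (0.010). Gbp2 at 0.07 ± 0.16 (0.71) and Igtp at -0.01 ± 0.09 (0.91) did not pass. The calls of higher level were fragile: DESeq2 made 1, beside 26.6% of all genes, the fit over all 12 libraries made 0, beside 4.97%, and the edgeR test without the third NC library made 1, beside 35.4%. Libraries of the NC group and of the Blank group differed among themselves by little more than counting noise, with a mean chi-square per gene of 1.38 to 2.00 in NC and 1.32 to 1.55 in Blank, against 96.9 to 160 in OTUB1_KD and 16.8 to 31.7 in SFD@M. A chi-square of this kind is near the number of degrees of freedom, a single one, where libraries differ by sampling alone. The adjusted p-values between Blank and NC rest on this narrow spread, which may be that of technical repeats.

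**Figure D5:**
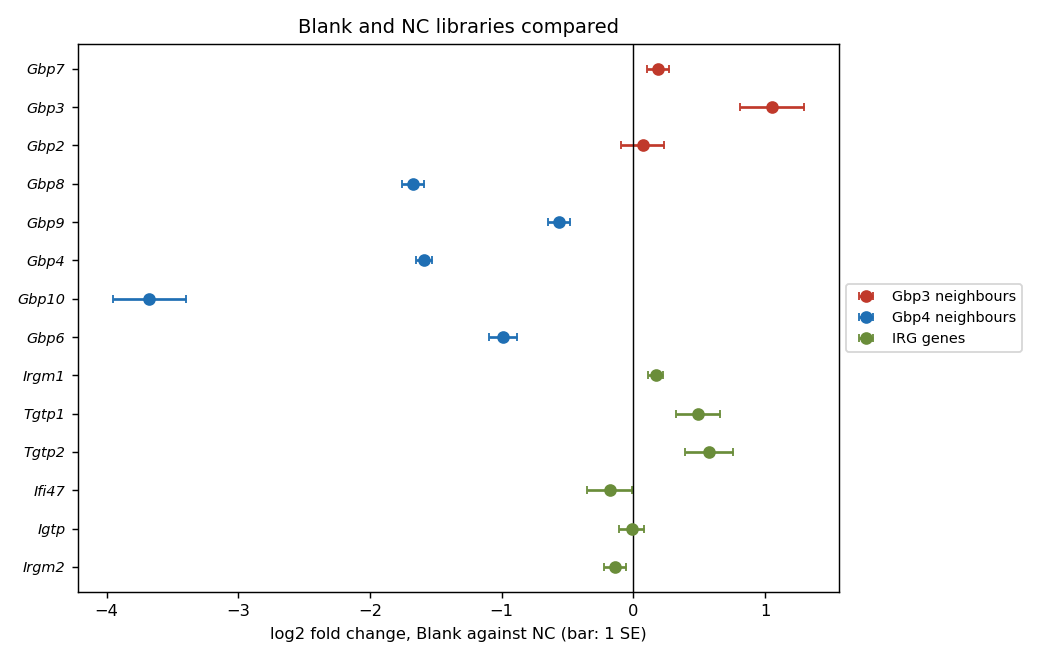
Log2 fold change (points, with bars of 1 SE) of Blank over NC for 14 GTPases, grouped by their neighbours in the RefSeq gene table. The 5 genes of the Gbp4 run lie between -3.68 and -0.57, while the plotted genes of the Gbp3 run and the 6 plotted immunity-related GTPase genes lie between -0.18 and 1.05; Iigp1 and F830016B08Rik, which are not plotted, were at 1.37 and -0.60.

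The gene lists used from here on were also chosen with earlier results of these data known. Their counts and adjusted p-values are therefore a description and no test. Among 11 other interferon-inducible GTPases in the table, 10 rose in OTUB1_KD over NC, where 39.9% of all genes rose. All 10 of these GTPases that were tested rose in SFD@M over Blank, where 49.5% of all genes rose. They include Irgm2, another regulatory immunity-related GTPase, with log2 fold changes of 3.99 ± 0.18 for OTUB1_KD over NC (adjusted p = 1.5e-05, edgeR) and 3.57 ± 0.17 for SFD@M over Blank (6.5e-07). Ifi47 rose by 5.28 ± 0.21 (1.2e-05) and 4.71 ± 0.27 (1.5e-06) in that order. Tgtp1 and Tgtp2, effector GTPases, rose by 5.70 ± 0.29 (2.1e-05) and 6.73 ± 0.29 (1.4e-05) in OTUB1_KD and by 4.11 ± 0.47 (8.1e-05) and 5.26 ± 0.37 (4.7e-06) in SFD@M, but they share 70.3% and 76.8% of their 100-base stretches and their split is uncertain. F830016B08Rik was the one that did not pass in OTUB1_KD, at 0.24 ± 0.46 (adjusted p = 0.66).

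Gbp2b, the gene next to Gbp2, had a log2 fold change of -5.61 ± 0.97 for SFD@M over OTUB1_KD, which did not pass (adjusted p = 0.085, edgeR). It had 32.1, 2.72 and 23.0 CPM in OTUB1_KD and no count in any NC library, which with a floor of 3 counts over the group is at least 322-fold higher. In SFD@M it had 0.646, 0.294 and 0.236 CPM against 0, 0.116 and 0.0583 CPM in Blank, 20 counts against 3, a ratio of 6.74 with a 95% counting interval of 2.00 to 35.4. The second OTUB1_KD library was low for Gbp2b while in CPM it was the highest of its group for 8 of the 10 listed genes, all but Gbp7 and Irgm1. In TPM the first OTUB1_KD library was above the second for Gbp2 (495 against 460), Gbp3 (87.4 against 85.1) and Igtp (169 against 156) as well. Gbp10 had 3.64, 4.35 and 5.77 CPM in SFD@M against 18.2, 65.3 and 41.6 CPM in OTUB1_KD. Its log2 fold change was -3.16 ± 0.46 (adjusted p = 0.069, edgeR), and the split of its reads from those of Gbp6 is uncertain.

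Of 4 relatives that are not known to respond to interferon, 1 rose and 2 fell in OTUB1_KD, and 2 rose and 2 fell in SFD@M. The shares of all genes were 39.9% higher and 25.8% lower in OTUB1_KD, and 49.5% higher and 38.7% lower in SFD@M, and a difference from the 10 GTPases was not tested. The atlastins Atl1 and Atl2, membrane-shaping GTPases of the same superfamily as the guanylate-binding proteins, fell in both comparisons. Their log2 fold changes were -1.94 ± 0.22 (adjusted p = 0.00035, edgeR) and -1.03 ± 0.17 (0.0016) in OTUB1_KD over NC, and -0.83 ± 0.17 (0.0020) and -0.81 ± 0.06 (4.7e-06) in SFD@M over Blank. Atl3 had 0.35 ± 0.24 (0.23) in OTUB1_KD over NC and rose by 0.81 ± 0.05 (1.9e-06) in SFD@M over Blank. Irgq rose by 0.41 ± 0.15 (0.042) and 1.15 ± 0.08 (2.7e-06), and the first call was lost without any 1 of the NC libraries, without the second OTUB1_KD library, on the TPM scale, and with no filter on low counts. Irgc1 had 9 counts over OTUB1_KD and none over NC and is not compared.

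Ifng, the cytokine itself, was present at low level in both treated groups and absent from every control library. It had 3.14, 1.10 and 4.16 CPM in OTUB1_KD and 0 counts in NC, at least 46.8-fold higher against a floor of 3 counts over the group. In SFD@M it had 0.528, 0.353 and 0.766 CPM and 0 counts in Blank, at least 9.44-fold higher. Of its receptor chains and kinases, Ifngr1 rose by 2.03 ± 0.16 in OTUB1_KD (adjusted p = 7.1e-05, edgeR) and 2.68 ± 0.06 in SFD@M (1.5e-08), and Ifngr2 by 0.64 ± 0.13 (0.0050) and 1.46 ± 0.08 (1.2e-06). Jak1 fell in both, with a log2 fold change of -0.65 ± 0.17 in OTUB1_KD (0.012), a call lost without the first or the second NC library, and of -0.64 ± 0.07 in SFD@M (6.3e-05). Jak2 had 0.29 ± 0.24 in OTUB1_KD (0.31) and rose by 0.94 ± 0.06 in SFD@M (2.6e-06).

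All 5 transcription factors compared rose in both comparisons, beside 39.9% of all genes in OTUB1_KD and 49.5% in SFD@M. Irf1, an interferon-induced activator of many interferon targets, had 216, 188 and 282 CPM in OTUB1_KD against 51.5, 47.5 and 52.9 CPM in NC, a log2 fold change of 2.11 ± 0.21 (adjusted p = 0.00018, edgeR). It had 131, 119 and 148 CPM in SFD@M against 33.8, 36.1 and 39.8 CPM in Blank, a log2 fold change of 1.82 ± 0.10 (8.8e-07). Every library of each treated group was above every library of its controls. Irf8, a myeloid and B cell factor that acts with IRF1, rose by 4.83 ± 0.31 (4.0e-05) and 5.17 ± 0.14 (3.6e-08), and Irf9, the DNA-binding part of an interferon-activated complex, by 3.65 ± 0.19 (2.2e-05) and 2.75 ± 0.18 (3.4e-06). For SFD@M over OTUB1_KD, none of the 5 passed: Irf8 was at -1.30 ± 0.24 (0.085), Irf1 at -0.79 ± 0.23 (0.13) and Irf9 at 0.10 ± 0.20 (0.81), and 3 of the 5 were lower at an unadjusted p below 0.05, beside 12% of all genes. DESeq2 called 3 of the 5 lower there, as did the fit of all 12 libraries and the edgeR test without the second OTUB1_KD library, beside 5.98%, 12.2% and 8.8% of all genes in that order.

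Other targets of the pathway, which serve antigen presentation, chemotaxis and checkpoint control, rose in 9 of 9 cases in both comparisons, beside 39.9% of all genes in OTUB1_KD and 49.5% in SFD@M. The MHC class II transactivator Ciita rose by 5.50 ± 0.25 in OTUB1_KD (adjusted p = 1.5e-05, edgeR) and 4.27 ± 0.15 in SFD@M (1.1e-07). The peptide transporter Tap1 rose by 2.98 ± 0.15 (1.9e-05) and 1.74 ± 0.09 (7.5e-07), and the immunoproteasome subunit Psmb9 by 3.84 ± 0.38 (0.00020) and 2.60 ± 0.12 (4.9e-07). The T cell attractant Cxcl9 had 180, 9.77 and 164 CPM in OTUB1_KD, with 1 count in all of NC, and 1.47, 2.77 and 2.89 CPM in SFD@M, with none in Blank. Cxcl10 had 3.82, 5.65 and 10.2 CPM in SFD@M against 79.9, 64.2 and 90.2 CPM in OTUB1_KD, a log2 fold change of -3.57 ± 0.38 (adjusted p = 0.057). For SFD@M over OTUB1_KD all 9 targets were lower at an unadjusted p below 0.05, beside 12% of all genes, and none at the adjusted threshold. DESeq2, the fit over all 12 libraries and the edgeR test without the second OTUB1_KD library each called all 9, beside 5.98%, 12.2% and 8.8% of all genes in that order, and without the first OTUB1_KD library 1, beside 0.0266%.

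Genes that hold interferon signalling back split. The phosphatase Ptpn6, expressed in blood cells, and the interferon-induced protease Usp18 rose by 3.76 ± 0.18 (adjusted p = 1.7e-05, edgeR) and 3.37 ± 0.32 (0.00017) in OTUB1_KD, and by 3.18 ± 0.15 (5.6e-07) and 2.97 ± 0.20 (3.0e-06) in SFD@M. Socs1, the JAK inhibitor that interferon-gamma induces, had 12.2, 6.53 and 16.6 CPM in OTUB1_KD against 4.98, 6.06 and 5.45 CPM in NC (log2 fold change 1.04 ± 0.37, 0.040), and 2.17, 2.24 and 1.94 CPM in SFD@M against 6.45, 6.78 and 7.58 CPM in Blank (-1.75 ± 0.16, 2.3e-05). In all, 4 of the 6 rose and 1 fell in OTUB1_KD, and 4 rose and 2 fell in SFD@M. Of all genes 39.9% rose and 25.8% fell in OTUB1_KD, and 49.5% rose and 38.7% fell in SFD@M, and with 6 genes these counts are not read as apart from those shares. On the TPM scale the number that rose was 2 of the 6 in each comparison. On log2(TPM + 1), 5403 of 14785 genes rose in OTUB1_KD and 6501 of 14824 in SFD@M. The number was also 2 in OTUB1_KD without any 1 of the NC libraries, where 5324 to 5339 of 15194 to 15201 genes rose. In SFD@M it was 2 without any 1 of the Blank libraries, where 7252 to 7266 of 15095 to 15103 genes rose. It was 2 there in the fit of all 12 libraries too, where 7229 of 15304 genes rose.

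Of 6 conjugation proteins that steer these GTPases to vacuoles, 2 rose in OTUB1_KD, beside 39.9% of all genes, and 4 rose and 2 fell in SFD@M, beside 49.5% and 38.7%, so these counts too are near the background. Atg7 rose by 1.00 ± 0.22 (adjusted p = 0.0067, edgeR) and 1.23 ± 0.09 (3.6e-06), and Gabarapl2 by 0.58 ± 0.15 (0.012) and 1.12 ± 0.07 (2.0e-06). On the TPM scale, or without any 1 of the NC libraries, 1 gene rose in OTUB1_KD. Of all genes, 5403 of 14785 rose there on log2(TPM + 1), and 5324 to 5339 of 15194 to 15201 without 1 NC library. In OTUB1_KD 1 fell on the TPM scale, in the fit of all 12 libraries and without the second OTUB1_KD library. In that order, with log2(TPM + 1) first, 4976 of 14785, 4922 of 15304 and 3672 of 14858 genes fell. In SFD@M 1 gene fell, not 2, with RLE, upper-quartile or total-count scaling, with DESeq2, in the fit of all 12 libraries, and without the second SFD@M library, the third SFD@M library, the first Blank library or the third Blank library. Of all genes, 5246 to 5725 fell under these settings, with 14824 to 17547 genes tested. Inflammasome partners of the guanylate-binding proteins split too: the sensor Nlrp3 and the pore protein Gsdmd rose, Gsdmd by 2.10 ± 0.16 in OTUB1_KD (6.7e-05) and 1.94 ± 0.11 in SFD@M (1.3e-06). The DNA sensor Aim2 had log2 fold changes of -2.07 ± 0.38 in OTUB1_KD (0.0029) and -2.71 ± 0.13 in SFD@M (5.6e-07), and so fell in both. Casp1, the inflammasome protease, fell by 1.94 ± 0.15 in SFD@M (8.7e-06) and had 0.25 ± 0.50 in OTUB1_KD (0.67). The first OTUB1_KD library had 84.4 CPM of it and the others 23.3 and 24.0 CPM. In OTUB1_KD 1 of the 5 partners fell, where 25.8% of all genes fell. Without that first library 2 of the 5 fell, where 4719 of 14988 genes fell.

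The genes whose levels ran most like the mean of the 10 were ranked by the root mean square difference of centred log2(CPM + 1) over all 12 libraries, among 12167 genes with a mean of at least 5 CPM. The 8 nearest were Slamf7 at 0.200, Cd86 at 0.216, Bcl2a1d at 0.255, Wnt4 and Cd83 at 0.257, Cd8a at 0.262, Cxcr6 at 0.263 and Irgm2 at 0.269. Of the 10 themselves, Gbp6 at 0.240 and Igtp at 0.246 were closest to the mean and Gbp2 at 1.48 was farthest. Slamf7, a receptor on leukocytes, averaged 21.1 CPM in OTUB1_KD against 0.0208 CPM in NC, and 6.69 CPM in SFD@M against 0 CPM in Blank. The offset of 1 compresses changes of genes at low CPM, so a near rank does not mean a like fold change. The libraries share their group and cell make-up, so this ranking describes these 12 libraries.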

How the data were processed

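RNA from 12 mouse samples in 4 groups of 3 was measured by poly(A) RNA-seq. The authors deposited 1 table of 70659 transcripts. Per the file headers it holds, for each library, expected counts (fractional read counts per transcript), TPM, FPKM and normalized read counts. Per the submitters' processing notes, Bowtie2, RSEM 1.3.1, DESeq2 1.4.5 and GRCm39 were used, with no roles stated; strand handling is not given in the sources used here. The authors' normalized counts, a scaled signal, were whole numbers after division by 1 factor per library for 100% of values (tolerance 0.001). FPKM, as deposited, was not used.

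Expected counts were summed per Entrez gene and rounded. Symbols came from the RefSeq table of GRCm38.p6, which matched 19155 of 19212 identifiers; unmatched ones took up to 0.342% of counts. That table also gave the promoters and the order of neighbouring genes. Shared 100-base stretches were read from GENCODE M21 transcripts. Each comparison of 3 against 3 libraries was fitted with edgeR 4.0.16 in R 4.3.3 (filterByExpr, TMM, robust quasi-likelihood test), with Benjamini-Hochberg adjustment over all genes tested and 0.05 as the threshold. The scripts were tested on simulated data. Depth was 16062805 to 18028815 counts per library. Fold changes against groups at 0 counts use a floor of 3 counts over the group. Such floors and the counting intervals take in counting error alone, because amplified reads carry no molecular identifiers.

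The 10 genes and all gene lists were chosen with earlier results of these data known. The text names genes of those lists (the 10 GTPases, other interferon-inducible GTPases, GTPase relatives, and the ligand, receptor, factors, inhibitors, targets, conjugation and inflammasome genes of the pathway), cell markers, and the 8 nearest patterns. Gbp11, Mx1, Mx2, Cxcl11, Trbc2 and Ighm were on those lists and are not analysed here, and 1 factor of the pathway is not reported here. Alternatives were other scaling factors (RLE, upper quartile, total counts), other filters, DESeq2 1.42.0, limma 3.58.1 on log2(TPM + 1) and log2(TPM + 0.1), 1 fit of all 12 libraries, the replicate number as a block, and leaving out each library in turn. The edgeR test on the whole reads recovered from the normalized counts was added after seeing the data. No pairing was used, with same-number correlations of deviations from the group mean of -0.21 to 0.10 over the 4 comparisons. NC and Blank libraries differed by little more than counting noise, so these correlations cannot exclude a pairing.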

Additional observations from a re-analysis of the deposited data

Results flagged for a closer look

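A few genes of the pathway lists moved in opposite directions in the 2 experiments, with every treated library on one side of its controls in CPM in the first experiment and on the other side in the second. The difference between the experiments was not tested for any of them. Socs1, an inhibitor of JAK kinases, had a log2 fold change of 1.04 for OTUB1_KD over NC and of -1.75 for SFD@M over Blank. Pias1, an inhibitor of interferon signalling, had -0.70 for OTUB1_KD over NC and 0.22 for SFD@M over Blank, where it passed narrowly (edgeR adjusted p = 0.048). On the TPM scale Pias1 was lower in both, with 26.0, 26.2 and 20.7 TPM in SFD@M against 28.0, 29.3 and 28.8 TPM in Blank, so the opposite directions hold in CPM only. Socs1 overlapped on that scale in the first experiment, with 8.62 TPM in 1 OTUB1_KD library against 9.49 TPM in 1 NC library. Atg12, a conjugation protein, had -0.33 for OTUB1_KD over NC, which did not pass the adjusted threshold (edgeR adjusted p = 0.077), and 0.52 for SFD@M over Blank. None of the 10 GTPases did so.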

How the results depend on the processing

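For OTUB1_KD over NC and SFD@M over Blank, all 10 GTPases stayed higher and past the threshold under all 17 alternatives run for each comparison, the block and the left-out libraries included; their choice used these contrasts, so this is no sign of stability. For SFD@M over OTUB1_KD the number called lower, 0 by the edgeR test on 2 groups, was 8 with DESeq2 and 9 with all 12 libraries in 1 fit. It was 1 without a filter, where 9 of 18361 genes were called lower. With limma it was 1 on log2(TPM + 1) and 1 on log2(TPM + 0.1), where 6 and 5 of 14914 genes were called lower. Leaving out 1 library gave 0 to 6. The cause was not tested. All 10 log2 fold changes kept their negative sign there. For Blank over NC the number called higher, 3, was 1 with DESeq2 and 0 in the fit of all 12 libraries, and 1 to 3 with 1 library left out, while the number lower was 3 to 4 throughout. Gbp2 and Igtp, which did not pass in Blank over NC, changed sign: Gbp2 ranged from -0.059 to 0.20 with 1 library left out, and Igtp from -0.051 to 0.040, with 0.011 for Igtp without a filter, 0.025 on log2(TPM + 1) and 0.027 on log2(TPM + 0.1). The median log2 fold change of all genes was -0.02 on the TPM scale, against 0.16 in edgeR, for OTUB1_KD over NC, and -0.03 against 0.23 for SFD@M over Blank. Calls over all genes split into 5903 higher and 3818 lower for OTUB1_KD over NC in edgeR and 5403 and 4976 on log2(TPM + 1); for SFD@M over Blank they split into 7331 and 5731 in edgeR and 6501 and 6741 on log2(TPM + 1).

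With the replicate number as a block, the calls of the 10 GTPases came to 10 higher in OTUB1_KD, 10 higher in SFD@M over Blank, 0 in SFD@M over OTUB1_KD, and 3 higher and 4 lower in Blank over NC, the same counts as without it; among their relatives, the call of Irgq in OTUB1_KD was not made with the block. Same-number correlations were not all over 0.1, which cannot exclude a pairing, because NC and Blank libraries differed by little more than counting noise. Depth limits Gbp5 most, which had 2 to 10 counts in each control library, and Gbp3, which had 9 to 40.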
